A study of Mus musculus with 4 samples.

Results

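The 39 protein-coding Hox genes of the mouse, which lie in 4 clusters, were examined in ATAC-seq peak lists from female germ cells. They were taken as every gene of the RefSeq table whose symbol is Hox, a letter from a to d and a number, 39 of 21887 protein-coding genes placed. HoxA holds 11 of them on chromosome 6, HoxB 10 on chromosome 11, HoxC 9 on chromosome 15 and HoxD 9 on chromosome 2. ATAC-seq marks open DNA by where a transposase inserts sequencing adapters, and a peak is a stretch with more insertions than its surroundings. The libraries came from embryos at embryonic day 15.5 of the C57BL/6 strain, and all cells, of both genotypes, had been sorted by an Oct4-EGFP reporter. There were 2 groups, Snf5 CKO and Control, with 2 libraries each. CKO stands for a conditional knockout of Snf5, the protein made from Smarcb1 and one of the core proteins of SWI/SNF, a complex that remodels chromatin. The sources used here give neither the alleles nor the Cre driver of the knockout, nor the genotype of the Control embryos beyond that name. Whether the replicates are separate animals is not in the labels, so p-values measure the spread between these libraries, which may be technical.

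Hox genes encode homeodomain transcription factors that give cells their position along the body axis and the limbs. Within a cluster they lie in the order in which they act from head to tail, and genes with the same number in different clusters are paralogs that arose when the cluster was duplicated. Polycomb complexes keep the clusters silent in cells that do not use them, SWI/SNF can oppose Polycomb, and mouse germ cells repress their Hox genes when they are set aside from the body.

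Promoter sequence was at hand for 22 of the 39 genes, as 24 entries of 300 bases (250 before and 50 after the gene start; RefSeq, GRCm38.p6). The 4 shown are those that hold bases under a peak in all 4 libraries, in both Control and no Snf5 CKO library, or in both Snf5 CKO and no Control library. Other entries had peaks in other combinations of libraries or none. Of the HoxC genes only Hoxc4 had an entry, and of the HoxB genes only Hoxb1, Hoxb4 and Hoxb8, so most entries were of HoxA and HoxD. Capitals mark bases under a peak in all 4 libraries for Hoxd1 (chr2:74762730-74763029, plus strand) and Hoxa13 (chr6:52260831-52261130, minus strand), in both Control and no Snf5 CKO library for Hoxd13 (chr2:74667975-74668274, plus strand), and in both Snf5 CKO and no Control library for Hoxd9 (chr2:74697513-74697812, plus strand). All are written 5′ to 3′.
Hoxd1: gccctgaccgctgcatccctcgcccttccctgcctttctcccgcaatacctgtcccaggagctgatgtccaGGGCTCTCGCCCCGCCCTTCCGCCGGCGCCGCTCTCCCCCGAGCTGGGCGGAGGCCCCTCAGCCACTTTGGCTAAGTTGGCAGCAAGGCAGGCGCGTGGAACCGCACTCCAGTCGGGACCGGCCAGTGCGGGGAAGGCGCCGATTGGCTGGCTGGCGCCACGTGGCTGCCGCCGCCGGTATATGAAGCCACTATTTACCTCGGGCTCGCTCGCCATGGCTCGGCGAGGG
Hoxa13: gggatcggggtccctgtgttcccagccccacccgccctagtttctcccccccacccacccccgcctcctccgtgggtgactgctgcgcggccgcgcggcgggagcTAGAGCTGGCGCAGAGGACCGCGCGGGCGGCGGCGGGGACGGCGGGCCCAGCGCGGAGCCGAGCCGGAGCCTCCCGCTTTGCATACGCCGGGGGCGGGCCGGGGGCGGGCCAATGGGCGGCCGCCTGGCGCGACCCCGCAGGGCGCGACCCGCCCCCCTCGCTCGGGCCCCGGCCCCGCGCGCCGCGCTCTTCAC
Hoxd13: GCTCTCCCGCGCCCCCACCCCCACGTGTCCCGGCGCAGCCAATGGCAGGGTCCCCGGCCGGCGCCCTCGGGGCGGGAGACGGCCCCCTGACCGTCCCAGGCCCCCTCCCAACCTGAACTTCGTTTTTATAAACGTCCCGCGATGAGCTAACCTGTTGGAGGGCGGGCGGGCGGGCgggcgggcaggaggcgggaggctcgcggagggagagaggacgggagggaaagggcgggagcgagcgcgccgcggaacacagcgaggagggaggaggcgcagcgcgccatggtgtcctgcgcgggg
Hoxd9: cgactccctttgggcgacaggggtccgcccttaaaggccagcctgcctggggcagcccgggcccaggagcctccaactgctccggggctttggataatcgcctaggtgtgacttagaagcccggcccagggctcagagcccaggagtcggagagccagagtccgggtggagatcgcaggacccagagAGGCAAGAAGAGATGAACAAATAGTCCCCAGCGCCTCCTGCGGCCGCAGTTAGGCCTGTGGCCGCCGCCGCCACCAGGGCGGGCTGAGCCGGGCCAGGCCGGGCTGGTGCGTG

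The capitals cover 229 bases at Hoxd1, a gene that shapes pain-sensing neurons, and 195 at Hoxa13, which patterns digits and the genital tubercle. Hoxd13, the HoxD partner of Hoxa13 in the digits, had all 300 bases under a peak in both Control libraries, against 125 in Snf5 CKO 1 and 0 in Snf5 CKO 2, which leaves 175 bases open in Control alone. At Hoxd9, a gene of the posterior trunk, 113 bases lay under a peak in Snf5 CKO 1 and 157 in Snf5 CKO 2, against 0 in each Control library. The Hoxa13 promoter held 45 CG dinucleotides, Hoxd13 held 37, Hoxd1 held 29 and Hoxd9 held 20. Over the 24 Hox entries the median was 14.5 CG (range 4 to 45), against 7 over all 32851 entries of the table, and the median GC share was 57.7% against 52.7%.

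Few of the 24 Hox promoter entries lay under a peak. Snf5 CKO 1 had a peak in 6 and Snf5 CKO 2 in 3 of the 24 entries, against 7 in Control 1 and 6 in Control 2. For all promoters the shares were 41.4% and 38.6% in Snf5 CKO 1 and 2, and 44.2% and 44.0% in Control 1 and 2. As shares, the Hox entries stood at 25% and 12.5% in Snf5 CKO 1 and 2, and at 29.2% and 25% in Control 1 and 2. Letters bound by homeodomain proteins were searched on both strands, each motif on its own, so that matches of different motifs could overlap. TAATTA, a homeodomain core, was in 2 of the 24 entries, both of Hoxd11, and in 5.29% of all promoters. TGATTNAT, written after joint Pbx and Hox sites, was in 2 entries, of Hoxa2 and Hoxd11, and in 3.22% of all. TGANTCA, the AP-1 core, was in 1 entry, of Hoxd11 (7.81% of all), and GGGGCGGGG, bound by Sp and Klf factors, was in 1, of Hoxa9 (11.4% of all).

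The lists held 45422 and 28625 peaks in Snf5 CKO 1 and 2, and 39465 and 36730 in Control 1 and 2, over 24.3 and 16.9 Mb in Snf5 CKO and 27.4 and 25.2 Mb in Control. They carry no read counts, so depth is unknown, and a place without a peak may be open below what a library could detect. A missing peak also cannot tell fewer cells with the site open from a site less open in each cell. Smarcb1 itself had no peak at its ends in either Snf5 CKO library, against 929 and 1139 bp of peaks in Control 1 and 2. Germ cell markers were open at their ends at 9 of 10 genes in both Snf5 CKO libraries and at 10 of 10 in both Control libraries, with Tdrd1 the one lost. Blood markers were open at 0 of 5 in all 4 libraries, endothelial markers at 1 of 5 in both Snf5 CKO and 2 of 5 in both Control libraries, and ovarian supporting cell markers at 5 of 8 in both Snf5 CKO libraries, against 6 and 5 of 8 in Control 1 and 2.

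Less of each Hox cluster lay under peaks in Snf5 CKO than in Control germ cells. The difference was wide at HoxC and HoxB and narrow at HoxA. Each cluster was measured from its first to its last gene with 50 kb on each side, 892 kb in all. HoxC, whose posterior genes include the hair gene Hoxc13 and the motor neuron genes Hoxc8 and Hoxc9, had 1.61% and 1.69% of its 216 kb under peaks in Snf5 CKO 1 and 2, against 8.29% and 6.17% in Control 1 and 2. HoxB, whose anterior genes pattern the hindbrain, had 0.891% and 0.641% of 274 kb under peaks in Snf5 CKO 1 and 2, against 3.54% and 2.38% in Control 1 and 2. In both clusters each Snf5 CKO library lay below each Control library, and the groups did not overlap. HoxD, the cluster that shapes digits and genitalia, had 2.69% and 2.41% of 197 kb under peaks in Snf5 CKO 1 and 2, against 4.79% and 3.83% in Control 1 and 2. HoxA, which holds the uterine genes Hoxa10 and Hoxa11, had 3.94% and 3.25% of 206 kb under peaks in Snf5 CKO 1 and 2, against 4.56% and 5.44% in Control 1 and 2. Here too the groups did not overlap, though at HoxA the gap between Snf5 CKO 1 and Control 1 was smaller than the spread within either group.

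**Figure D1:**
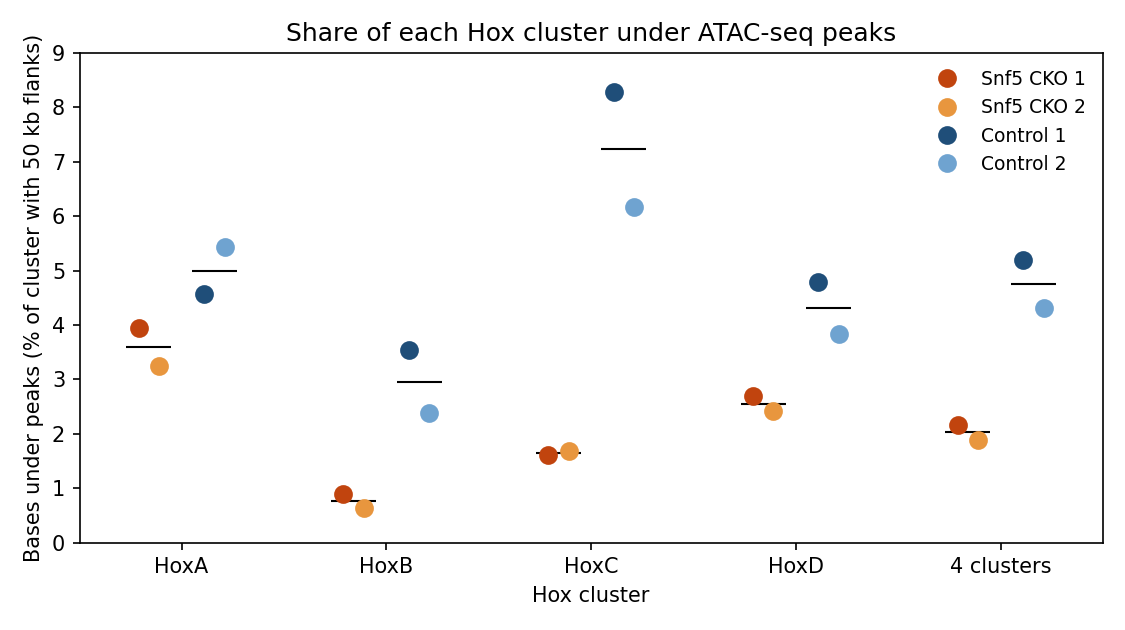
Share of each Hox cluster with 50 kb flanks that lay under ATAC-seq peaks (vertical axis, percent of bases), with 1 point per library and a bar at the mean of each group. Snf5 CKO points lie below Control points in every cluster, with HoxC at 1.61% and 1.69% against 8.29% and 6.17%.

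The Snf5 CKO mean over the Control mean was 0.228 at HoxC (1.65% ± 0.0593 against 7.23% ± 1.5, SD, n = 2 each) and 0.259 at HoxB (0.766% ± 0.177 against 2.96% ± 0.819). It was 0.592 at HoxD (2.55% ± 0.197 against 4.31% ± 0.676) and 0.718 at HoxA (3.59% ± 0.486 against 5.0% ± 0.618). The 4 clusters together had 2.03% ± 0.195 under peaks in Snf5 CKO and 4.76% ± 0.622 in Control, a ratio of 0.425. The exact two-sided permutation test over libraries gave p = 0.333 for each cluster and for all together (adjusted p = 0.333 over the clusters), the smallest that 2 libraries against 2 can give and too large to pass any usual threshold. With only peaks of −log10 q of at least 3 kept in every library, HoxA turned round, with 2.21% and 1.90% in Snf5 CKO 1 and 2 and 2.24% and 1.78% in Control 1 and 2, values that overlap, while HoxC stood further apart, with 0.525% and 0.382% in Snf5 CKO 1 and 2 and 6.28% and 4.06% in Control 1 and 2. Whether the clusters differ from each other in their ratio was not tested.

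Most of the genome was also less covered in Snf5 CKO. Among 1445 tiles of 200 kb with at least 5000 covered bases on average in Control, tiles over the clusters included, both Snf5 CKO libraries lay below both Control libraries in 85.8%, so the same order at all 4 Hox clusters is near the background. The median tile ratio was 0.651, with 0.366 and 0.950 at the 5th and 95th percentiles. HoxA and HoxD lay inside that range, with 66.4% and 37.0% of tiles at or below their ratios. HoxB and HoxC lay under it, with 1.31% of tiles at or below HoxB and 0.830% at or below HoxC. For HoxC that share was 0.0935% (1 of 1069 tiles) when the 4 lists were cut to the same length and 0.00% (0 of 1001 tiles) at a −log10 q of at least 3. For HoxB the share in these settings is not given here. Its ratio rose to 0.379 and 0.298 in them, against median tile ratios of 0.672 and 0.662. Divided by all covered bases of each library, the ratios were 0.304 for HoxC, 0.333 for HoxB, 0.775 for HoxD and 0.926 for HoxA.

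**Figure D2:**
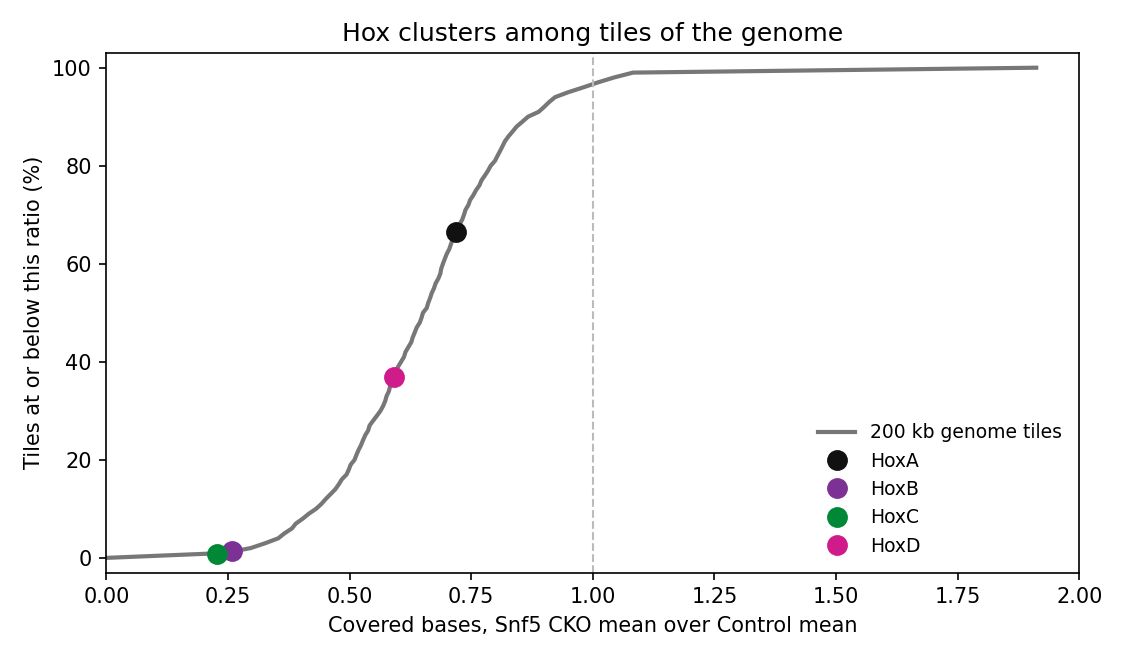
Covered bases in Snf5 CKO over Control (horizontal axis, ratio of group means) against the percent of 200 kb genome tiles at or below that ratio (vertical axis). The grey line runs over 1445 tiles and the points mark the 4 clusters. HoxC at 0.228 and HoxB at 0.259 sit at the low end, HoxD at 0.592 and HoxA at 0.718 in the middle.

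Markers of stroma and mesenchyme, cells that use Hox genes in the embryo, had less peak length in Snf5 CKO, as did every other marker list with peaks. The stroma and mesenchyme markers were open at 5 and 3 of 9 genes in Snf5 CKO 1 and 2, against 6 of 9 in both Control libraries. Their summed peak length was 2477 and 1616 bp in Snf5 CKO 1 and 2, against 4889 and 4701 bp in Control 1 and 2. Of all genes 60.4% and 56.4% were open in Snf5 CKO 1 and 2, and 63.3% and 63.0% in Control 1 and 2. Among all genes open in all 4 libraries, 77.3% had shorter peaks in both Snf5 CKO than in both Control libraries. Pdgfra, Dcn and Lum had no peak in any library, and Wnt5a had none in Snf5 CKO, against 257 and 632 bp in Control 1 and 2. The germ cell markers also summed to less, 6552 and 5113 bp in Snf5 CKO 1 and 2 against 9771 and 8561 bp in Control 1 and 2. Supporting cell markers summed to 5114 and 4785 bp in Snf5 CKO 1 and 2 against 8544 and 7203 bp in Control 1 and 2, with Amhr2 and Gata4 at 0 throughout, and endothelial markers to 756 and 891 bp against 1497 and 1742 bp, with Cdh5 and Emcn at 0. The part of any such cells in the Hox values was not tested.

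The Hox peaks were weak ones within their own lists. The authors' fold, a ratio to local background given once for each whole peak, is used here to rank peaks within a list. The median Hox peak stood at the 30.6th and 15.4th percentile of fold in the lists of Snf5 CKO 1 and 2, and at the 7.52nd and 8.06th percentile in those of Control 1 and 2. Of the Hox peaks, 5 of 37 and 0 of 37 had a fold under 3 in Snf5 CKO 1 and 2, against 55 of 80 and 46 of 69 in Control 1 and 2. Over whole lists the shares under 3 were 7.02% and 3.33% in Snf5 CKO 1 and 2, and 14.1% and 11.6% in Control 1 and 2. Both Snf5 CKO libraries thus held fewer Hox peaks than either Control library, although the whole list of Snf5 CKO 1 was the longest of the 4.

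**Figure D3:**
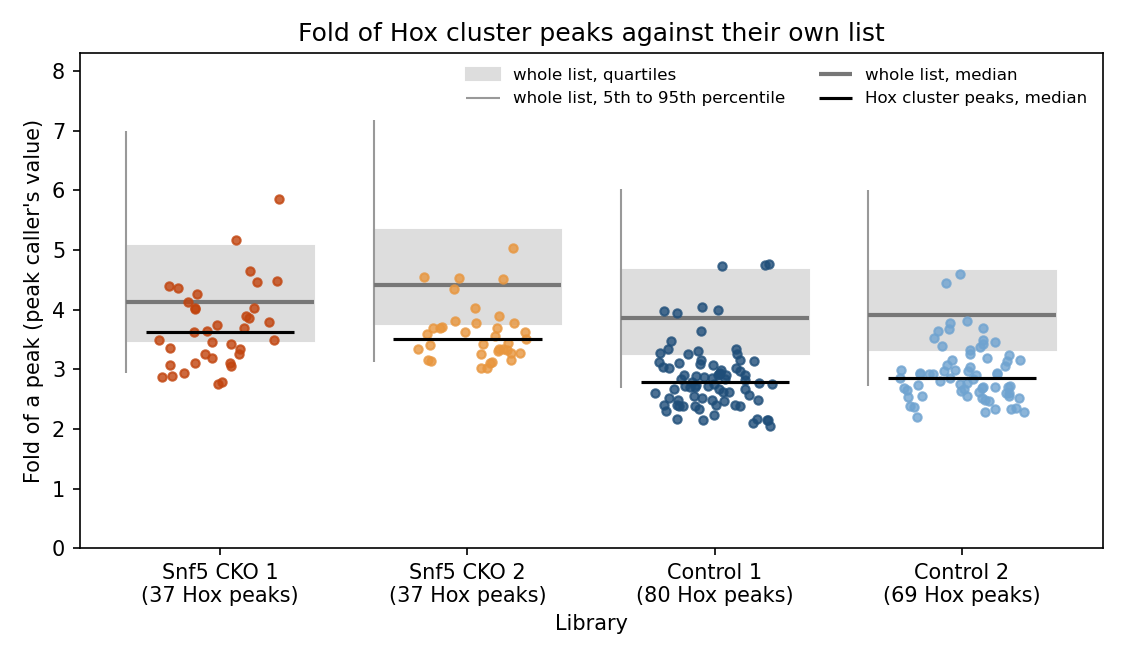
Fold of each Hox cluster peak (points; vertical axis, the peak caller's value) in each library, beside the quartiles, median and 5th to 95th percentile of the whole list. In Control 1 and 2, 55 of 80 and 46 of 69 Hox peaks lie under 3, and in Snf5 CKO 1 and 2, 5 of 37 and 0 of 37.

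By cluster, HoxC had 8 and 10 peaks in Snf5 CKO 1 and 2, against 27 and 23 in Control 1 and 2. HoxB had 4 in each Snf5 CKO library, against 19 and 12 in Control 1 and 2. HoxD had 8 and 10 in Snf5 CKO 1 and 2, against 16 and 15 in Control 1 and 2. HoxA had 17 and 13 in Snf5 CKO 1 and 2, against 18 and 19 in Control 1 and 2, the smallest gap of the 4 clusters. The map of peaks shows where they lay. At HoxC the Control peaks ran through the whole cluster and its Hoxc4 side, and at HoxB the stretch between Hoxb13 and Hoxb9 and the stretch after Hoxb8 each held Control peaks with few or no Snf5 CKO peaks.

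**Figure D4:**
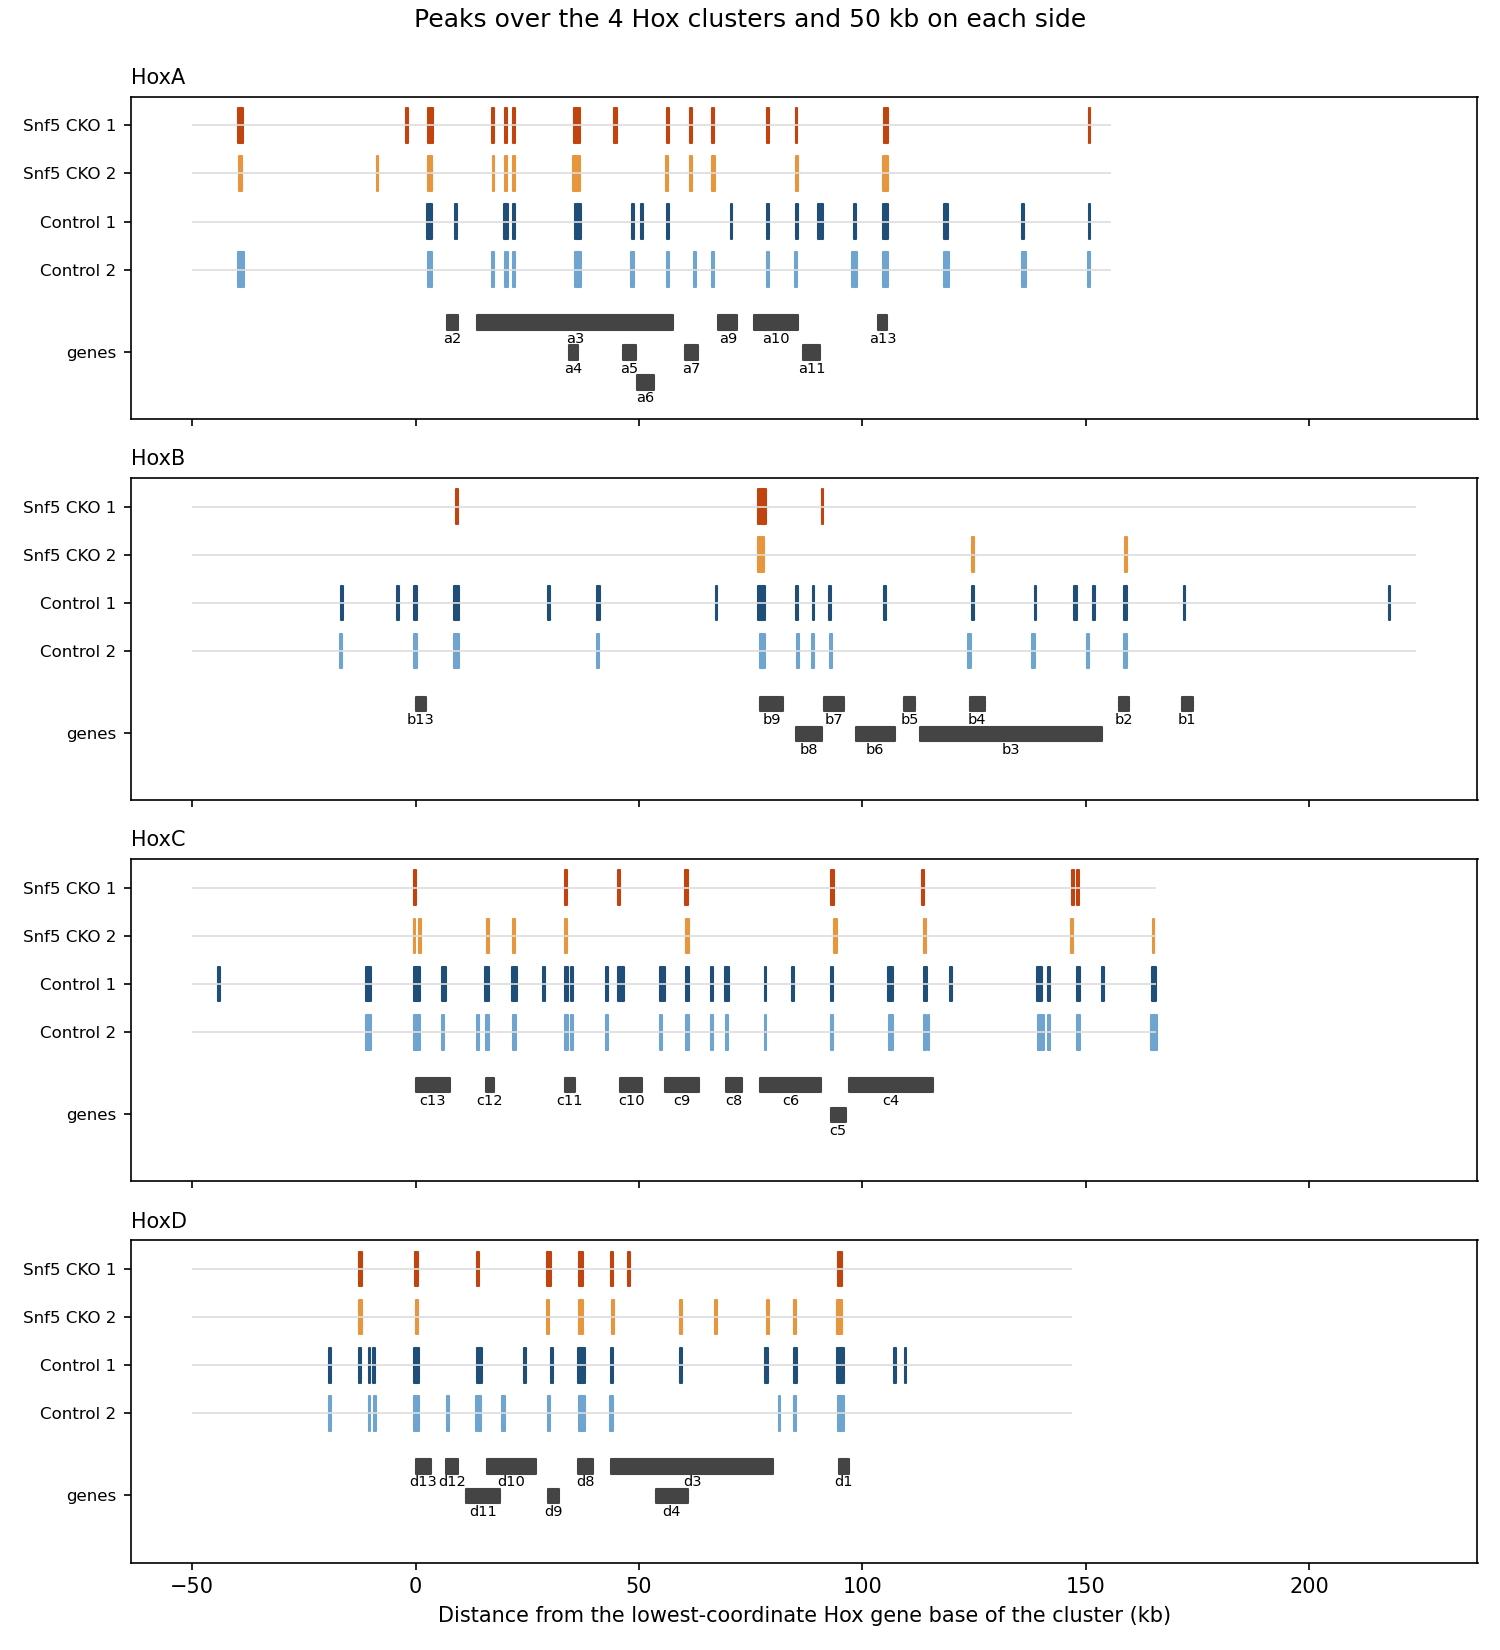
Peaks of each library (coloured bars) over the 4 Hox clusters and their 50 kb flanks, by distance from the lowest-coordinate Hox gene base (horizontal axis, kb), with genes drawn as dark bars below. HoxC has 8 and 10 peaks in Snf5 CKO 1 and 2 and 27 and 23 in Control 1 and 2, and HoxA has 17 and 13 against 18 and 19.

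Merging overlapping peaks of the 4 lists gave 106 regions in the clusters, 51 of them with a peak in both Control libraries. Of these 51, 24 were lost, meaning a peak in both Control and neither Snf5 CKO library, and 15 were kept, with a peak in all 4. Over the genome 18.0% of such regions were lost and 69.8% kept. Gained regions, with a peak in both Snf5 CKO and neither Control library, numbered 2 of the 106, against 5.08% of all regions. Lost regions numbered 11 of 20 at HoxC, 6 of 9 at HoxB, 4 of 13 at HoxA and 3 of 9 at HoxD. Kept regions numbered 3 at HoxC, 1 at HoxB, 7 at HoxA and 4 at HoxD. The lost share went with the strength of the Control peaks. Where the lower of the 2 Control folds was under 3, 44.4% of all regions were lost, against 20 of 35 Hox regions. Where it was at least 3, 14.5% of all regions were lost, against 4 of 16 Hox regions. All 11 lost HoxC regions were among its 17 with the lower fold under 3, and 0 of its 3 others were lost. The count of 24 became 9 when presence needed a −log10 q of at least 3, 14 with lists of the same length and 15 without the flanks, and it was 37 without Control 1 and 48 without Control 2, since a region then needs 1 Control peak only. Gained regions numbered 5 without Snf5 CKO 1, 7 without Snf5 CKO 2, 4 without Control 1 and 6 without Control 2.

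Of the 15 kept regions 11 touched a Hox gene end and 4 a gene body, with a median width of 1096 bp. Of the 24 lost ones 8 touched a gene end, 5 a gene body and 11 lay between genes, with a median width of 571 bp. Over the genome 56.4% of kept and 16.7% of lost regions were at a gene end, so a higher share for kept regions is the genome-wide pattern too. The lost region with the highest fold in its weaker library lay between Hoxb13 and Hoxb9 (chromosome 11, 96234983 to 96235528, mm10), with no peak in Snf5 CKO and peaks of 546 and 211 bp in Control 1 and 2. The next lay beyond Hoxa13 (chromosome 6, 52291133 to 52291913), with no peak in Snf5 CKO and 333 and 781 bp in Control 1 and 2. The gained ones lay in the HoxC flank beyond Hoxc4 (chromosome 15, 103067779 to 103068185), with 230 and 386 bp in Snf5 CKO 1 and 2, and in the body of Hoxa7 (chromosome 6, 52216769 to 52217210), with 357 and 417 bp in Snf5 CKO 1 and 2. Neither had a Control peak.

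Hox genes were next scored at both annotated ends, 1 kb to each side, as open in a library with a peak there. Of the 39 genes 17 were open in each Snf5 CKO library, against 26 in each Control library. Of all genes 60.4% and 56.4% were open in Snf5 CKO 1 and 2, and 63.3% and 63.0% in Control 1 and 2. Of the 22 Hox genes open in both Control libraries 6 were lost and 12 kept, where all genes gave 4.84% lost and 89.6% kept. Of the 9 closed in both, 2 were gained, where all genes gave 0.534%. No library had a peak at the ends of 6 genes (Hoxa3, Hoxb3, Hoxb5, Hoxb6, Hoxd4 and Hoxd10), where all genes gave 33.6%, and the other 13 were mixed. The annotated spans of Hoxa3, Hoxb3 and Hoxd3 reach over neighbouring Hox genes, and Hoxa3 had peaks in its body in all 4 libraries.

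**Figure D5:**
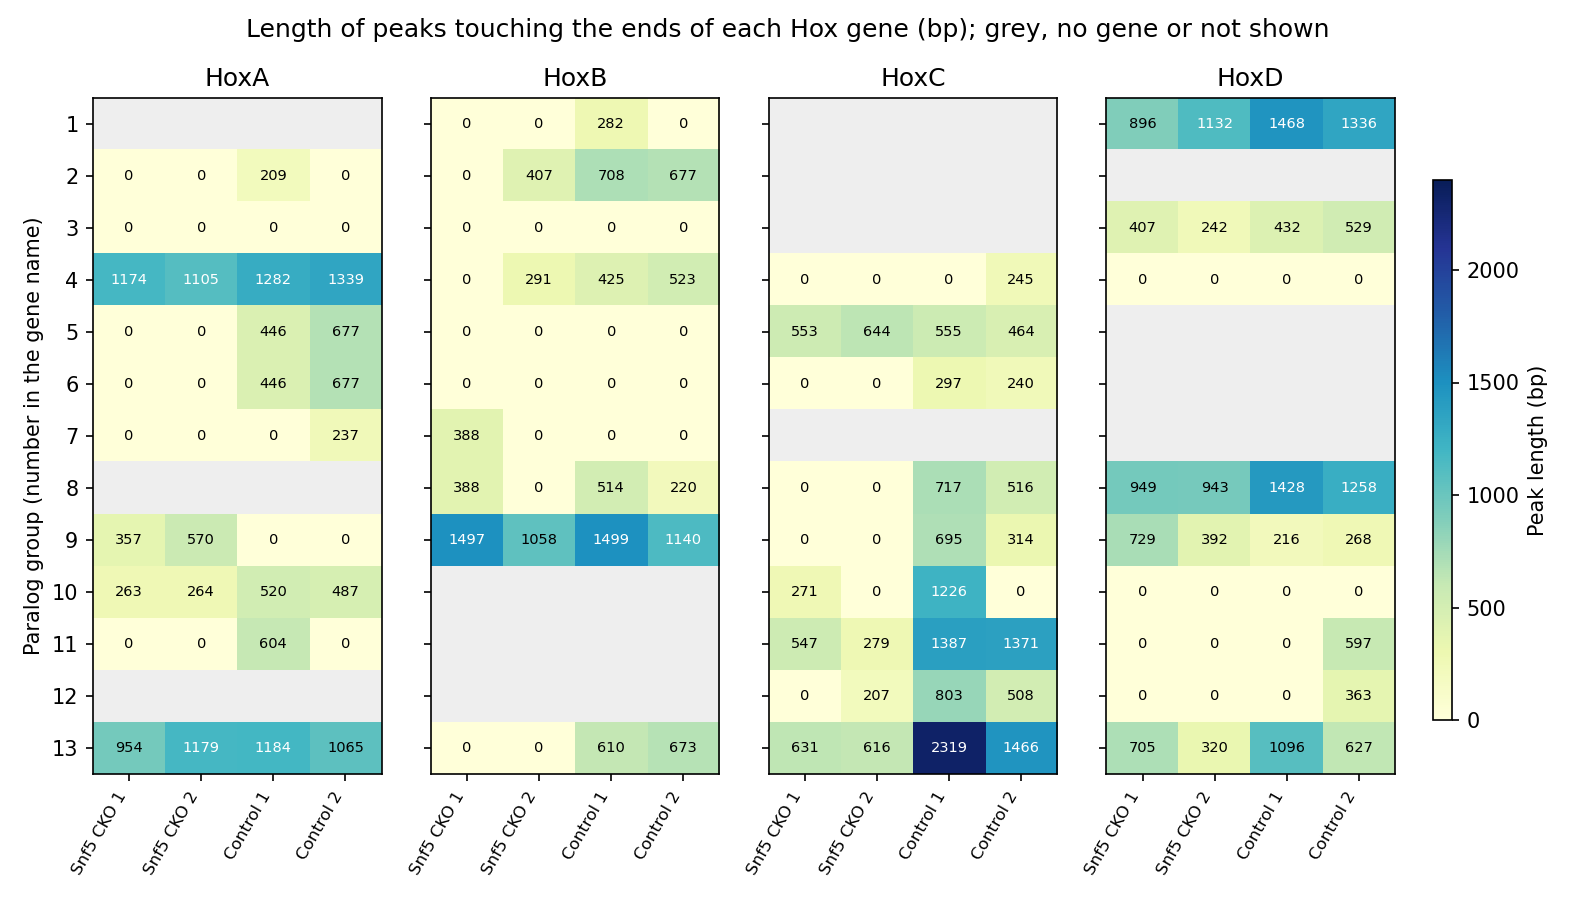
Summed length in bp (number and colour) of the peaks touching the ends of each Hox gene, in columns of libraries with Snf5 CKO left of Control and rows of paralog groups, for the 4 clusters (grey, no gene or not shown). HoxC genes Hoxc6, Hoxc8 and Hoxc9 are at 0 in both Snf5 CKO libraries, and Hoxd1, Hoxd8 and Hoxb9 have peaks in all 4.

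The 6 lost genes were Hoxc6, Hoxc8 and Hoxc9 at HoxC, Hoxa5 and Hoxa6 at HoxA, and Hoxb13 at HoxB. Hoxc8, needed for the thoracic skeleton and brachial motor neurons, had no peak at its ends in Snf5 CKO, against 717 and 516 bp in Control 1 and 2, and its nearest Snf5 CKO peaks were 8353 and 8173 bp away. Hoxc9, which sets thoracic motor neuron identity, had no peak at its ends in Snf5 CKO, against 695 and 314 bp in Control 1 and 2. A peak in the Hoxc9 body was present in all 4 libraries, so the gene was not without peaks in Snf5 CKO. Hoxc6, a gene of the brachial level, had none in Snf5 CKO, against 297 and 240 bp in Control 1 and 2. Those Control peaks lay mostly outside the end window, with 21 and 13 bp of them inside it. Hoxa5, which is needed for lung and cervical skeleton, and Hoxa6 shared 1 peak, absent in Snf5 CKO and 446 and 677 bp long in Control 1 and 2. That peak was 359 and 435 bp from the Hoxa5 start in Control 1 and 2, and it met the window at the end of Hoxa6 away from its start. Hoxb13, the tail end gene of HoxB that is also used in the prostate, had none in Snf5 CKO, against 610 and 673 bp in Control 1 and 2.

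The calls of lost genes varied in how they held. Hoxc8 was lost under all 11 alternative settings that gave it a call, and Hoxc6 and Hoxc9 under 9 of 11. Hoxb13 was lost under 8 of 11, Hoxa5 under 8 of 12 and Hoxa6 under 7 of 12. Each total includes the 4 settings that left out a library, which could not end a lost call. The count of 6 was 3 with presence at a −log10 q of at least 3, with windows of 500 bp, or with 500 bp of a window covered, and 10 without Control 1. The authors' folds of the lost genes were 2.64 to 3.34 in Control, under the list medians of 3.86 and 3.91 in Control 1 and 2.

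Of the 2 gained genes, Hoxa9 is described here. Hoxa9, a gene of blood progenitors and the posterior axis, had 357 and 570 bp in Snf5 CKO 1 and 2, against 0 in both Control libraries. Of these peaks 17 and 248 bp lay inside the end window in Snf5 CKO 1 and 2. The Hoxa9 start lay 5257 and 5026 bp from the nearest Snf5 CKO peaks, so the gained peak was at the other gene end, and Control 2 had a peak in the same merged region. The Hoxa9 call held under 7 of 12 alternatives. The 4 of these that left out a library could not end the call. With windows of 2 kb the count of gained Hox genes was 0, as it was with windows of 500 bp.

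The 12 kept genes were Hoxa4, Hoxa10 and Hoxa13, Hoxb9, Hoxc5, Hoxc11 and Hoxc13, and Hoxd1, Hoxd3, Hoxd8, Hoxd9 and Hoxd13. Peaks at Hoxc13, needed for hair and nails, summed to 631 and 616 bp in Snf5 CKO 1 and 2, against 2319 and 1466 bp in Control 1 and 2, a log2 length ratio of -1.60. Hoxc11, a hindlimb and kidney gene, had 547 and 279 bp in Snf5 CKO 1 and 2, against 1387 and 1371 bp in Control 1 and 2, a log2 ratio of -1.74. At both genes the sums of both Snf5 CKO libraries were below those of both Control libraries, as at 77.3% of all kept genes. The Control sums hold a second peak absent in Snf5 CKO. It was 581 and 572 bp in Control 1 and 2 at Hoxc11, and 811 bp in Control 1 at Hoxc13. Control 2 had 453 bp in that Hoxc13 region, outside the end window and so not in its sum. In the region with peaks in all 4 libraries, Hoxc11 had 547 and 279 bp in Snf5 CKO 1 and 2, against 806 and 799 bp in Control 1 and 2. The highest fold at Hoxc13 stood at the 86.4th and 68.5th percentile in Snf5 CKO 1 and 2. In Control 1 and 2 it stood at the 9.16th and 7.87th. The Control 1 value is of its second peak, and its peak in the region shared by all 4 libraries stood at the 6.39th. Hoxd9 went the other way, with 729 and 392 bp in Snf5 CKO 1 and 2 against 216 and 268 bp in Control 1 and 2. Its log2 ratio was 1.21, and the groups did not overlap in length. The Control 1 peak overlapped none of the other libraries' peaks, so these lengths are not of 1 shared site. Hoxc5 had 553 and 644 bp in Snf5 CKO 1 and 2 and 555 and 464 bp in Control 1 and 2, lengths that overlap between groups. There the Snf5 CKO 2 peak overlapped none of the other libraries' peaks.

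Other kept genes had long peaks in both groups. Hoxb9, the widest open place of HoxB, had 1497 and 1058 bp in Snf5 CKO 1 and 2 and 1499 and 1140 bp in Control 1 and 2. Hoxa4, the widest of HoxA, had 1174 and 1105 bp in Snf5 CKO 1 and 2 and 1282 and 1339 bp in Control 1 and 2. Hoxa13 had 954 and 1179 bp in Snf5 CKO 1 and 2 and 1184 and 1065 bp in Control 1 and 2, so Hoxb9 and Hoxa13 overlapped between groups and Hoxa4 did not. Hoxd1, the gene end with the highest fold in HoxD, had 896 and 1132 bp in Snf5 CKO 1 and 2, against 1468 and 1336 bp in Control 1 and 2. Hoxd8, also among the kept regions strongest in fold, had 949 and 943 bp in Snf5 CKO 1 and 2, against 1428 and 1258 bp in Control 1 and 2. Hoxa10, which is needed in the uterus and had the highest fold of a HoxA gene end in Snf5 CKO 1 and Control 2 but not in the other libraries, had 263 and 264 bp in Snf5 CKO 1 and 2, against 520 and 487 bp in Control 1 and 2. These 3 genes, like Hoxa4, were shorter in each Snf5 CKO library than in each Control library, as were 77.3% of all kept genes.

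Over the 12 kept genes the median log2 length ratio was -0.49 (range -1.74 to 1.21), against -0.41 over all 12030 kept genes. Both Snf5 CKO libraries were shorter than both Control libraries at 7 of the 12, where all kept genes gave 77.3%, and longer at 1, Hoxd9, where all gave 1.27%. The median peak length at kept Hox genes was 717 and 630 bp in Snf5 CKO 1 and 2, against 1233 and 1103 bp in Control 1 and 2. Without Snf5 CKO 2 the median log2 ratio was -0.24.

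Among the mixed genes, 7 of the 8 open in 1 library were open in Control, where all genes open in 1 library gave 64.2%. Hoxa2 (209 bp), Hoxa11 (604 bp) and Hoxb1 (282 bp) were open in Control 1 alone, and Hoxa7 (237 bp), Hoxc4 (245 bp), Hoxd11 (597 bp) and Hoxd12 (363 bp) in Control 2 alone. At Hoxd11 a further peak region inside the gene, outside the end windows and over one of its 2 starts in the promoter table, had 467 and 0 bp in Snf5 CKO 1 and 2 and 937 and 518 bp in Control 1 and 2. Hoxa2 and Hoxb1 pattern the hindbrain, and Hoxa11, Hoxd11 and Hoxd12 the limb. Hoxb7 was open in Snf5 CKO 1 alone, through a peak of 388 bp that it shares with Hoxb8. Hoxb2, another hindbrain gene, had 0 and 407 bp in Snf5 CKO 1 and 2, against 708 and 677 bp in Control 1 and 2. Hoxb4, known from blood stem cells, had 0 and 291 bp in Snf5 CKO 1 and 2, against 425 and 523 bp in Control 1 and 2. At Hoxb2 and Hoxb4 the Snf5 CKO peak was shorter than either Control peak. The Control 2 peak at Hoxb4 overlapped none of the other libraries' peaks, so the Hoxb4 lengths are not of 1 shared site.

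Hoxc12 had 0 and 207 bp in Snf5 CKO 1 and 2, against 803 and 508 bp in Control 1 and 2. Hoxb8 had 388 and 0 bp in Snf5 CKO 1 and 2, against 514 and 220 bp in Control 1 and 2, with the Snf5 CKO peak at the other gene end from the Control peaks. Hoxc10, a gene of the lumbar level, had 271 and 0 bp in Snf5 CKO 1 and 2, against 1226 and 0 bp in Control 1 and 2, so each group had 1 open library.

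Read along the axis, 5 of 12 genes of paralogs 1 to 4 were open in both Control libraries, with 3 kept and 0 lost. For paralogs 5 to 8 it was 7 of 11, with 2 kept and 4 lost. For paralogs 9 to 13 it was 10 of 16, with 7 kept and 2 lost. All genes open in both Control libraries gave 89.6% kept and 4.84% lost. In paralog group 13 Hoxa13, Hoxc13 and Hoxd13 were kept and Hoxb13 was lost. In group 6, Hoxa6 and Hoxc6 were lost and Hoxb6 was open in no library. By cluster, HoxD held 5 kept and 0 lost of 5 genes open in both Control libraries, and HoxC 3 and 3 of 7. HoxA held 3 and 2 of 5, and HoxB 1 and 1 of 5. These are counts of few genes that share peaks with their neighbours, and no test was run on them. Of the 5 microRNA genes of the clusters, Mir10a had a peak within 1 kb (523 bp, Control 2 alone), and Mir10b, Mir196a-1, Mir196a-2 and Mir196b had none in any library.

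Genes that work with the Hox proteins or lie beside them kept their peaks in shares near the 89.6% of all genes open in both Control libraries. Of the 9 TALE genes, whose proteins bind DNA together with Hox proteins, 9 and 7 were open in Snf5 CKO 1 and 2, against 9 and 8 in Control 1 and 2, and of the 8 open in both Control libraries 7 were kept and 0 lost. Meis2 had 375 and 0 bp in Snf5 CKO 1 and 2, against 1425 and 596 bp in Control 1 and 2. Meis3 had 877 and 0 bp in Snf5 CKO 1 and 2, against 1156 and 0 bp in Control 1 and 2. Of 8 upstream regulators 7 were open in both Control libraries and 6 of these were kept, Rarb was open in no library, and Cdx4, a caudal factor that activates Hox genes in the tail bud, was lost, with no peak in Snf5 CKO and 610 and 814 bp in Control 1 and 2. Of 14 genes next to the clusters 11 were open in both Control libraries, and all 11 were kept. Evx1, beside HoxA, had 505 and 0 bp in Snf5 CKO 1 and 2 and 1063 and 0 bp in Control 1 and 2. Evx2, beside HoxD, and Skap1, beside HoxB, were open at their ends in no library, though every library had a peak in the Evx2 body. Whether the Hox genes differ from these lists was not tested.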

How the data were processed

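ATAC-seq was measured in 4 libraries, grouped by the labels. Per the submitters' processing notes, the tools were MACS2 2.2.7.1, Bowtie2 2.4.2, Trim Galore 0.6.5, Picard 2.25.2 and SAMtools 1.10, on mm10. The sources used here do not give their settings. The authors deposited a broad peak list per library, called separately, with a fold over local background (a ratio), −log10 p and −log10 q per peak. The deposited score is the −log10 q multiplied by 10 and truncated. No read counts were used, so depth is unknown. Folds served only to describe and rank peaks.

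Peaks were intersected (at least 1 bp) with RefSeq genes of GRCm38.p6 (the mm10 primary assembly) at both gene ends ± 1 kb and over clusters ± 50 kb, in Python 3.11.15 (numpy 2.4.6, pandas 2.3.3, scipy 1.17.1). The gene table gives no strand, so both ends were used; strand came from the promoter table for 22 Hox genes. Group means of covered percent were compared by exact permutation of libraries. The functions were tested on simulated data. Members, lists and the naming rule were chosen with earlier results of these data known. The rule accounts for all 39 genes and gives values for lost and gained genes, the kept genes with the 2 highest and 2 lowest length ratios, the highest fold per cluster, and genes open in 1 or 3 libraries. Values of 1 Hox gene are not reported here; it is included in the counts. The 200 kb tiles and the split at a fold of 3 were added after the data were seen. In peak length at the 12030 kept genes, same-numbered libraries of the 2 groups did not deviate together (correlation -0.0138). That correlation cannot see peaks present or missing together, nor a shift common to all genes, so pairing remains unknown. The numbers were not taken as pairs in the main test. Alternatives were −log10 q of at least 3, lists of the same length, other windows, overlaps and flanks, scaling, and leaving out each library.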

Additional observations from a re-analysis of the deposited data

How the results depend on the processing

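The sign of the difference in covered percent stayed negative for HoxB, HoxC, HoxD and all clusters together under every alternative run. For HoxA it did so under 9 of 10. The 4 runs that left out a library could not change the sign, as both Snf5 CKO values lay below both Control values. The replicate block described below uses the same difference, so its sign was fixed too. Under the strict threshold throughout (−log10 q 3 or more for every peak) HoxA was higher in Snf5 CKO by 0.0428 percentage points (exact permutation p = 1). Ratios ranged over the settings from 0.0877 to 0.304 for HoxC, 0.216 to 0.379 for HoxB, 0.449 to 0.775 for HoxD and 0.650 to 1.02 for HoxA. A replicate block (exact permutation within same-numbered pairs) left the differences as they were, at -1.41, -2.19, -5.58 and -1.76 percentage points for HoxA, HoxB, HoxC and HoxD and -2.74 together, with p = 0.5, the smallest it can give. The strict threshold for presence alone, with any peak denying absence, has no value of its own for covered percent and was not run there.

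Counts depended more on the settings, and the cause was not tested beyond what each setting does by construction. Lost Hox genes, 6 as reported, were 3 with strict presence, 3 with 500 bp windows and 3 with 500 bp of a window covered. They were 7 to 10 without 1 library, and 1 at gene starts alone (22 genes with a strand). Hoxb13, Hoxc6, Hoxc8 and Hoxc9 were not among those 22 genes, so the gene-start setting could not score them. Gained genes, 2 as reported, were 1 under the strict threshold throughout, 1 under strict presence and 1 with equal-length lists. They were 0 with 500 bp or 2 kb windows, 0 in merged regions, 0 with 500 bp covered and 0 at gene starts, and 2 to 3 without 1 library. Kept genes, 12 as reported, were 5 under the strict threshold throughout, 5 under strict presence and 5 with equal-length lists, 6 with 500 bp covered, and 12 to 15 without 1 library. The median log2 length ratio of kept genes, -0.49, was -0.20 for strict presence and -0.20 with equal-length lists, and -0.70 to -0.24 without 1 library.

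Lost regions, 24 as reported, were 9 for strict presence, 14 with equal-length lists, 15 without flanks and 30 to 48 without 1 library. Gained regions, 2 as reported, were 0 under the strict threshold throughout and 0 under strict presence, 1 without flanks and 4 to 7 without 1 library. Kept regions, 15 as reported, were 5 under the strict threshold throughout, 5 under strict presence, 5 with equal-length lists and 16 to 21 without 1 library. Leaving out a library loosens each rule, since 3 libraries then decide. Depth is unknown, so absence of a weak Hox peak is not absence of open DNA.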
